A study of Homo sapiens with 65 samples.

Results

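Between day 4.5 and day 7.5 of untreated culture, left-ventricular cardioids gained transcripts of contractile genes, among them ventricular-type MYH7, and of calcium genes. They lost transcripts of sterol synthesis, interstitial collagens and fibronectin, and stem-cell RNA-binding proteins. The comparison rests on 6 of the 65 libraries of the series: the 3 untreated libraries of day 7.5 against the 3 untreated libraries of day 4.5. They were chosen by their labels alone, as the untreated control libraries of the hyaluronidase arm, and each day-7.5 library was paired with the day-4.5 library of the same line name (TNNI1, WT or TNNT2). Cardioids are heart-like aggregates that self-organise from human pluripotent stem cells, and here all were derived from WTC-11, an established induced pluripotent stem cell line. The labels give the genotype of all 6 libraries as WT and do not say what the line names TNNI1 and TNNT2 mark. No hyaluronidase was given to any of them. Hyaluronidase digests hyaluronan, the matrix sugar polymer that the study as a whole is about, and the enzyme-treated groups used below were labelled by the day on which its addition began, day 1.5 for HAse1.5 and day 2.5 for HAse2.5. Every culture passed through mesoderm induction, was reaggregated at day 1.5 in medium with BMP4, FGF2, insulin, the WNT secretion inhibitor C59 and retinoic acid, and was later moved to a second patterning medium and then to a cardiomyocyte medium. Each library pooled 8 cardioids, and the labels do not tie the pools of one line at the 2 days to one culture. The p-values of this comparison measure only the spread within groups over all 24 libraries of the hyaluronidase arm, these 6 among them.

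As background, cardiac progenitors first switch on contractile genes such as TNNT2 and MYH6, and ventricular-type genes such as MYH7, MYL3 and IRX4 and the machinery of the mature sarcomere follow. In the embryonic heart tube an outer muscle layer and an inner lining are separated by a hyaluronan-rich matrix, the cardiac jelly, in which versican is bound to hyaluronan by the link protein HAPLN1. Progenitor programmes, among them ISL1, PDGFRA and the LIN28 proteins, are turned down as muscle differentiates.

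Total counts of the 6 libraries ranged from 1120719 to 1567012, against 831062 to 3574843 over the series. Levels are given as CPM, a gene's counts scaled to the total of its library. All 6 cardiomyocyte marker genes fixed for the check (TNNT2, MYH6, MYH7, ACTN2, TTN and MYL7) had counts at both days, so the label of cardiac cells held at each. Their summed level was 42500, 27500 and 21700 CPM at day 4.5 and 63600, 56700 and 65300 CPM at day 7.5, here and below in the order of the TNNI1, WT and TNNT2 lines. In this sum the TNNI1 library of day 4.5 therefore stood closer to day 7.5 than the day-4.5 libraries of the other lines did. Mitochondrially encoded genes took 0.554, 0.509 and 0.452% of counts at day 4.5 and 1.05, 0.902 and 2.39% at day 7.5, and the part of this rise in the results below was not tested. In bulk RNA, fewer cells of a type and less RNA per cell cannot be told apart.

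Of 12748 genes tested, 1033 changed across the step at a Benjamini-Hochberg adjusted p under 0.05 in edgeR's quasi-likelihood test with line as a block, which is 8.1% of the genes. Of these, 553 were higher at day 7.5 (4.34% of genes tested) and 480 lower (3.77%). These shares are the background for the counts of called list members in the untreated step below. The median log2 fold change of all genes tested was −0.003. In 1024 of the 1033 genes all 3 lines moved in the fitted direction. The test that chose these genes used the same differences, so this agreement follows in part from the choice. The size of the step differed between lines: the median difference over the genes called higher was 1.17, 1.02 and 1.40 on the log2 scale, and over those called lower −1.27, −0.96 and −1.60. In the labels each line goes with its own replicate number, and it gave a single untreated library at each day. Differences between lines here and below therefore cannot be told apart from differences between replicates or single libraries. The count of changed genes depended on single libraries. It was 361 without the day-4.5 WT library, 325 without the day-4.5 TNNT2 library, 355 without the day-7.5 TNNI1 library and 374 without the day-7.5 TNNT2 library. Without the day-7.5 WT library it was 2166, of which 971 were higher, and without the day-4.5 TNNI1 library it was 867.

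**Figure D1:**
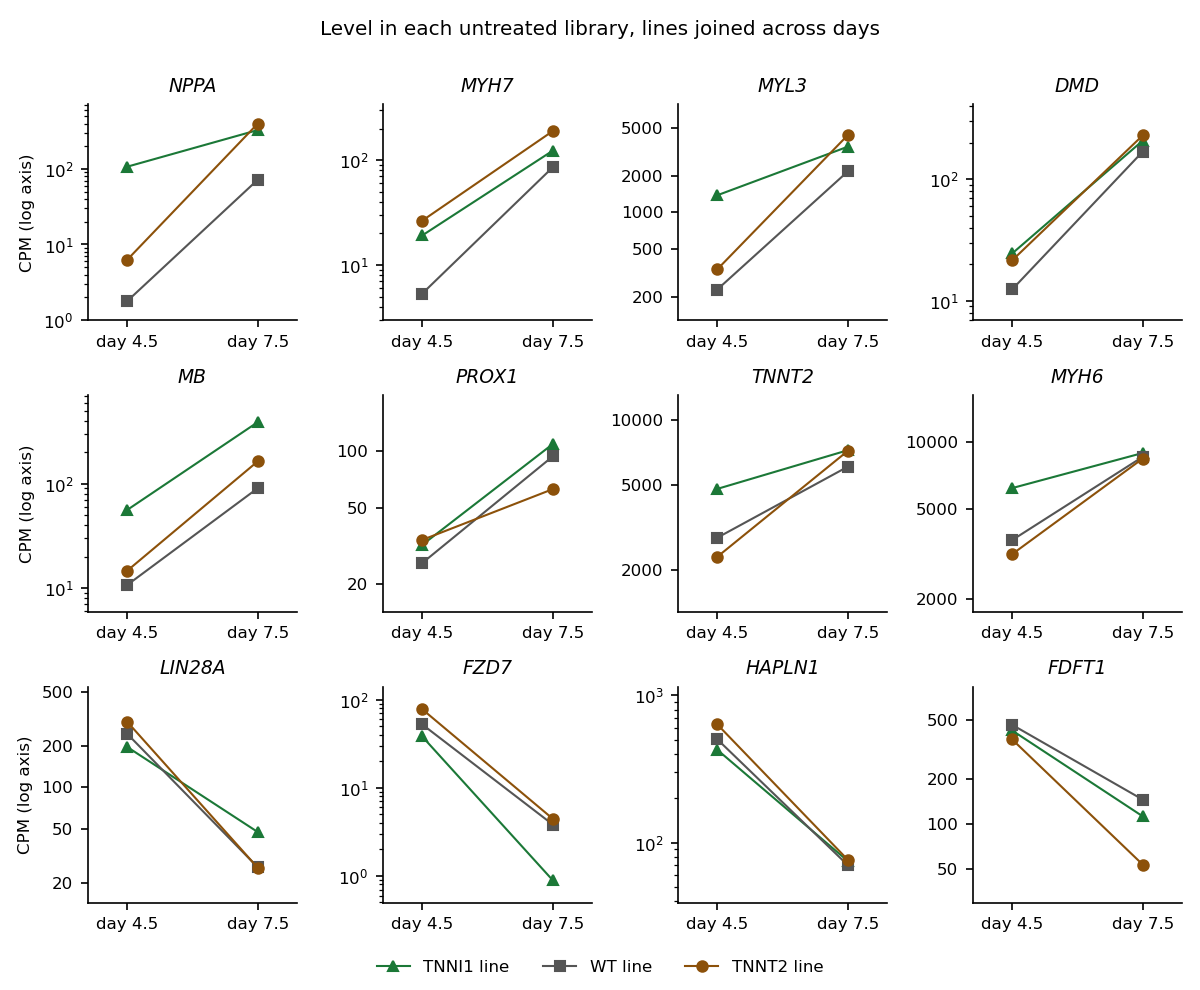
Level of 12 genes in each of the 6 untreated libraries, in CPM on a log axis, with the day-4.5 and day-7.5 libraries of a line joined. NPPA, MYH7, MYL3, DMD, MB and PROX1 rose in all 3 lines, NPPA from 107 CPM in the TNNI1 line and from 1.78 and 6.26 CPM in the others, while LIN28A, FZD7, HAPLN1 and FDFT1 fell. TNNT2 and MYH6 were higher at day 7.5 in every line but did not pass the test.

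Among called genes with a mean of at least 20.0 CPM in the higher group and the same direction in all 3 lines, the 10 with the highest fold change were SORCS3, ENG, SPHKAP, NPPA, MLIP, PRSS35, AKAP6, DMD, BCAM and TXLNB. DMD (ENSG00000198947, chromosome X, 31097677 to 33339441 on GRCh38) encodes dystrophin, which ties the muscle cytoskeleton to the membrane. It had 24.6, 12.4 and 21.6 CPM at day 4.5 and 209, 170 and 231 CPM at day 7.5. All 3 lines gained it by a similar factor and the days did not overlap (log2 fold change 3.51, SE 0.29, edgeR adjusted p 3.1e-08). AKAP6, a scaffold that anchors protein kinase A at the nuclear envelope and junctional membranes of muscle, rose from 5.46, 1.78 and 4.87 CPM to 40.2, 24.3 and 66.8 CPM (log2 fold change 3.53, SE 0.67, edgeR adjusted p 0.00234). SPHKAP, another protein kinase A anchor, went from 0, 1.78 and 2.78 CPM to 16.1, 34.5 and 31.9 CPM. MLIP, a lamin-interacting protein of muscle, went from 3.41, 2.66 and 1.39 CPM to 22.3, 17.2 and 61.6 CPM, the TNNT2 line being highest. SPHKAP passed the test in all 14 alternative fits and MLIP in 13, the exception being the fit without the TNNT2 line.

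ENG, the TGF-beta co-receptor endoglin, had 0.683, 0 and 2.78 CPM at day 4.5 and 36.6, 16.6 and 45.3 CPM at day 7.5 (log2 fold change 4.85, SE 0.83, edgeR adjusted p 0.00103). Endoglin is also an endothelial gene. Of the 10 tested endothelial markers described further on, 7 had a fold change above 0 and 3 below (median 1.18). SORCS3, a sortilin-family sorting receptor, had 2 counts in all 3 libraries of day 4.5 together and 23.2, 35.1 and 7.42 CPM at day 7.5, a pooled ratio of 45.4 with a counting interval of 12.2 to 381. BCAM, a laminin receptor, rose from 7.51, 5.33 and 7.65 CPM to 90.1, 37.7 and 92.0 CPM, with the WT line lowest at both days (log2 fold change 3.48, SE 0.51, edgeR adjusted p 0.00018). PRSS35, a serine protease-like protein, rose from 4.78, 12.4 and 5.56 CPM to 30.3, 97.6 and 126 CPM. TXLNB, a taxilin family member, rose (log2 fold change 3.43, SE 0.84, edgeR adjusted p 0.015), a call that was lost without the day-7.5 TNNI1, the day-4.5 WT or the day-4.5 TNNT2 library (adjusted p 0.0823 to 0.0884).

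By the same rule the 10 genes with the lowest fold change were SOCS3, PKDCC, FZD7, CALB2, GNB2, CRABP2, NPY, MYRF, CACNG4 and FAM89A. FZD7, a WNT receptor, fell from 38.2, 52.4 and 77.9 CPM to 0.892, 3.83 and 4.45 CPM (log2 fold change −4.02, SE 0.65, edgeR adjusted p 0.00071). The lowest day-4.5 library lay well above the highest day-7.5 library. PKDCC, a secreted tyrosine kinase of connective tissue, went from 71.0, 121 and 121 CPM to 4.46, 3.19 and 8.16 CPM, and CALB2, the calcium-binding protein calretinin, from 30.7, 21.3 and 18.8 CPM to 0.892, 2.55 and 1.48 CPM. NPY, a neuropeptide, had 46.4, 12.4 and 19.5 CPM at day 4.5 and 1.79, 1.28 and 3.71 CPM at day 7.5. That FZD7, PKDCC, CALB2 and NPY fell in all 3 lines was required by the rule that chose them. SOCS3, a feedback inhibitor of cytokine signalling, fell from 21.8, 33.8 and 13.9 CPM to 2 counts in the 3 day-7.5 libraries together, a pooled ratio of 45.1 with a counting interval of 12.1 to 378, and its call was lost without any 1 of 5 of the 6 libraries, the day-4.5 TNNI1 library being the exception (adjusted p 0.0553 to 0.131). The call of GNB2 was lost without the day-7.5 TNNI1, the day-4.5 WT, the day-4.5 TNNT2 or the day-7.5 TNNT2 library (adjusted p 0.0637 to 0.0784), and that of MYRF without any library but the day-7.5 WT library (0.0516 to 0.177).

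Genes of the sarcomere, the contractile unit of striated muscle, had fold changes above 0 in 11 of 11 tested thick filament genes, 12 of 12 thin filament genes and 15 of 16 Z-disc genes, and most were short of the threshold. In the list of thick filament and M-band genes 5 of 11 tested members were called higher and 0 lower, with a median log2 fold change of 1.33, against a background of 4.34% of genes called higher. In the thin filament list 3 of 12 were called higher (median 1.03), and in the list of Z-disc and costamere genes 3 of 16 (median 1.11), with 0 lower in both. MYH7 (ENSG00000092054, chromosome 14, 23412738 to 23435718), the slow myosin heavy chain that is the main ventricular form in human heart, had 19.1, 5.33 and 26.4 CPM at day 4.5 and 123, 85.5 and 189 CPM at day 7.5. It rose in all 3 lines and in all 14 alternative fits (log2 fold change 3.17, SE 0.38, edgeR adjusted p 5.1e-05). MYH6, the myosin heavy chain of early and atrial muscle, already had 6218, 3654 and 3164 CPM at day 4.5 and had 8905, 8566 and 8414 CPM at day 7.5. Its log2 fold change of 1.13 (SE 0.64) did not pass (edgeR adjusted p 0.28). MYH7B, a myosin heavy chain of slow muscle, rose from 43.0, 6.22 and 16 CPM to 66.0, 51.1 and 178 CPM, and MYOM1, the myomesin that crosslinks thick filaments at the M-band, from 678, 205 and 209 CPM to 1358, 1190 and 2664 CPM. The TNNI1 line had the smallest difference for both, with the highest day-4.5 level.

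The light chains showed the same arrangement of lines. MYL3, the ventricular essential light chain, had 1384, 229 and 337 CPM at day 4.5 and 3497, 2182 and 4361 CPM at day 7.5 (log2 fold change 2.74, SE 0.69, edgeR adjusted p 0.0245). Its call was lost without the day-7.5 TNNI1, the day-4.5 WT, the day-4.5 TNNT2 or the day-7.5 TNNT2 library (adjusted p 0.0515 to 0.136). MYL7, the atrial regulatory light chain, had 4688, 1409 and 1590 CPM and then 6648, 8168 and 13100 CPM, groups that did not overlap, and did not pass (edgeR adjusted p 0.0715). MYL4, the atrial essential light chain, did not pass either (log2 fold change 1.33, adjusted p 0.125). MYL2, the regulatory light chain that marks mature ventricular muscle, was at 0 counts in all 3 day-4.5 libraries and had 4.46, 0.638 and 6.68 CPM at day 7.5, at least 4.99-fold higher against a floor of 3 counts over the group. It was too low to be tested.

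On the thin filament, TPM2 (beta-tropomyosin) rose from 526, 318 and 251 CPM to 746, 706 and 843 CPM (log2 fold change 1.22, SE 0.25, edgeR adjusted p 0.00394). TNNC1, the calcium-binding troponin, had 679, 185 and 172 CPM at day 4.5 and 884, 744 and 1090 CPM at day 7.5 (log2 fold change 1.71, edgeR adjusted p 0.0351). That call was lost without any 1 library except the day-4.5 TNNI1 library (adjusted p 0.0503 to 0.179). LMOD2, which elongates thin filaments, was called higher too and lost its call without the day-7.5 TNNI1, the day-4.5 WT, the day-4.5 TNNT2 or the day-7.5 TNNT2 library (0.0912 to 0.183). Troponin T, TNNT2, had 4778, 2828 and 2303 CPM and then 7240, 6067 and 7189 CPM, and slow troponin I, TNNI1, 1503, 1085 and 1072 CPM and then 2403, 1916 and 2433 CPM. Neither passed (edgeR adjusted p 0.148 and 0.183), although the days did not overlap for either gene. The adult troponin I, TNNI3, overlapped between days, at 79.9, 7.99 and 21.6 CPM and then 46.4, 24.9 and 162 CPM. TTN, the titin spring, had 26570, 19480 and 14490 CPM at day 4.5 and 40390, 33430 and 36000 CPM at day 7.5 and lay just outside the threshold (log2 fold change 1.00, SE 0.32, edgeR adjusted p 0.0533).

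At the Z-disc, which anchors thin filaments, FHL2 rose from 95.5, 30.2 and 17.4 CPM to 185, 112 and 190 CPM (log2 fold change 1.99, SE 0.40, edgeR adjusted p 0.00471). TCAP (telethonin) had 60.7, 15.1 and 7.65 CPM and then 124, 68.3 and 203 CPM, and ACTN2 (alpha-actinin) 245, 99.5 and 125 CPM and then 294, 382 and 450 CPM. TCAP and ACTN2 lost their calls without the day-4.5 WT, the day-4.5 TNNT2 or the day-7.5 TNNT2 library (adjusted p 0.0667 to 0.0718 and 0.0897 to 0.115). The lists differed in median between lines. Over the thick filament list the median difference was 0.68 in the TNNI1 line, 2.26 in the WT line and 2.19 in the TNNT2 line, and over the Z-disc list 0.21, 1.55 and 1.70. Without the day-4.5 TNNI1 library the calls were 7 of 11 thick filament, 4 of 12 thin filament and 5 of 17 Z-disc genes. Without the day-4.5 WT, the day-4.5 TNNT2 or the day-7.5 TNNT2 library they were 3, 1 and 1, and without the day-7.5 TNNI1 library 3, 1 and 3. Without both libraries of the TNNT2 line they were 1, 0 and 0, and MYH7B, MYOM1, TPM2 and FHL2 lost their calls.

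**Figure D2:**
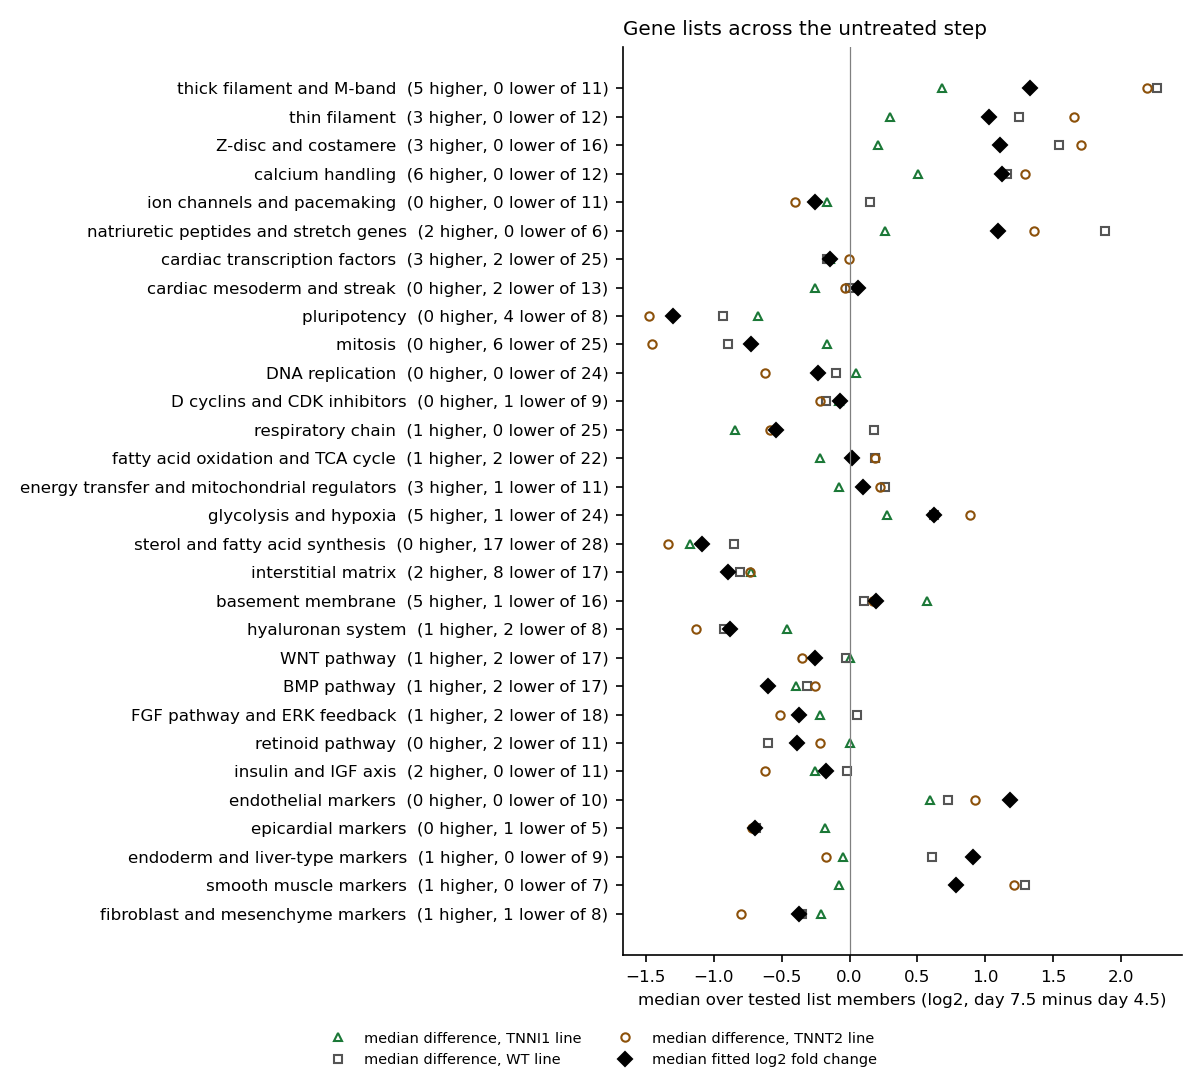
Median over the tested members of each gene list of the fitted log2 fold change (black diamonds) and of the difference between the 2 libraries of each line (open symbols), in log2 units, day 7.5 minus day 4.5, for lists with at least 5 tested members. Numbers beside each list give the members called. The 3 sarcomere lists lie to the right with the TNNI1 line nearest to 0 (0.68, 0.30 and 0.21), and the sterol and interstitial matrix lists lie to the left in all 3 lines.

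Calcium handling genes, which couple the membrane signal to contraction, were called higher in 6 of 12 members and lower in 0 (median 1.13). ASPH, whose junctin and junctate forms sit at the calcium store, rose from 222, 153 and 185 CPM to 467, 326 and 306 CPM (log2 fold change 1.08, SE 0.19, edgeR adjusted p 0.000989). CACNB2, an auxiliary subunit of the L-type calcium channel, rose from 32.8, 14.2 and 25.0 CPM to 108, 90.6 and 89.8 CPM (log2 fold change 2.14, SE 0.40, edgeR adjusted p 0.00214). Both changed in all 14 alternative fits. The pore subunit CACNA1C (log2 fold change 1.16), the auxiliary subunit CACNA2D1 (1.27), the junctional protein JPH2 (1.74) and the store protein SRL (1.36) were the other members called. CACNA2D1 lost its call without the day-4.5 WT, the day-4.5 TNNT2 or the day-7.5 TNNT2 library (adjusted p 0.0576 to 0.0974). Without the day-4.5 WT, the day-4.5 TNNT2 or the day-7.5 TNNT2 library 2 members were called higher, and without the day-4.5 TNNI1 library 8. The release channel RYR2 had 923, 686 and 635 CPM and then 1645, 1326 and 2164 CPM (edgeR adjusted p 0.12), and the calcium pump ATP2A2 overlapped between days (adjusted p 0.0519). PLN, the pump's inhibitor phospholamban, was the single member with a fold change below 0. It had 237, 288 and 214 CPM at day 4.5 and 57.1, 250 and 90.5 CPM at day 7.5, lower in every line but by little in the WT line (log2 fold change −0.98, SE 0.49, edgeR adjusted p 0.221).

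Ion channel and pacemaking genes did not share this pattern: 0 of 11 were called in edgeR and 0 in DESeq2, 3 had an unadjusted p under 0.05 (1 higher and 2 lower), and the median was −0.26. HCN4, the pacemaker channel, had 64.8, 49.7 and 35.5 CPM at day 4.5 and 12.5, 50.4 and 5.19 CPM at day 7.5, so that it was lower in the TNNI1 and TNNT2 lines and level in the WT line (edgeR adjusted p 0.177). TBX3, a repressor of working-muscle genes in the conduction system, had a log2 fold change of −0.49 (adjusted p 0.232). In the list of natriuretic peptides and stretch genes 2 of 6 were called higher. NPPA (ENSG00000175206, chromosome 1, 11845709 to 11848345), the atrial natriuretic peptide and a marker of trabecular and atrial muscle, had 107, 1.78 and 6.26 CPM at day 4.5 and 328, 72.1 and 399 CPM at day 7.5. The day-4.5 TNNI1 library lay above the day-7.5 WT library, so the days overlapped although each line rose (log2 fold change 4.03, SE 0.62, edgeR adjusted p 0.000943). Without line as a block its adjusted p was 0.137 (log2 fold change 2.87), and in the fit of the 6 libraries alone 0.196. CORIN, the protease that activates the natriuretic peptides, rose from 28.0, 6.22 and 4.87 CPM to 68.7, 60.0 and 59.4 CPM (log2 fold change 2.57, edgeR adjusted p 0.00532), and the call was lost without the day-4.5 TNNT2 library (0.0532). NPPB, the neighbouring B-type peptide gene, had 28.7, 3.55 and 11.8 CPM and then 0, 10.2 and 18.6 CPM, with the lines moving in opposite directions.

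Transcription factors of the heart mostly showed no call. Of 25 tested, 3 were higher, 2 lower and 20 not called, with a median of −0.14. The background over all genes was 4.34% called higher and 3.77% called lower. PROX1, a regulator of sarcomere assembly in the developing heart, rose from 32.1, 25.8 and 34.1 CPM to 109, 93.8 and 63.1 CPM (log2 fold change 1.61, SE 0.27, edgeR adjusted p 0.000775), in all 14 alternative fits. IRX4, a ventricular factor, rose from 25.3, 15.1 and 0.695 CPM to 153, 106 and 28.9 CPM (log2 fold change 2.98, SE 0.70, edgeR adjusted p 0.0159). HEY2, a factor of the compact ventricular wall, had 50.5, 10.7 and 16.7 CPM and then 149, 38.3 and 57.9 CPM (edgeR adjusted p 0.0102). IRX4 and HEY2 lost their calls without the day-7.5 TNNI1, the day-4.5 WT or the day-4.5 TNNT2 library (adjusted p 0.074 to 0.127 and 0.0671 to 0.0963). ISL1, the progenitor factor of the second heart field, fell from 45.7, 73.7 and 96.7 CPM to 2.68, 28.1 and 23.7 CPM (log2 fold change −1.81, SE 0.51, edgeR adjusted p 0.0364), most in the TNNI1 line. GATA4, an early cardiac factor, fell from 195, 290 and 264 CPM to 128, 182 and 131 CPM (log2 fold change −0.65, edgeR adjusted p 0.0378). ISL1 and GATA4 lost their calls without the day-7.5 TNNI1, the day-4.5 WT, the day-4.5 TNNT2 or the day-7.5 TNNT2 library (0.116 to 0.129 and 0.111 to 0.192). NKX2-5 (edgeR adjusted p 0.337), TBX5 (0.324) and HAND1 (0.794) overlapped between days.

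Several genes of earlier stages fell. In the pluripotency list 4 of 8 tested members were called lower and 0 higher, against a background of 3.77% called lower, with a median of −1.30, or −1.03 with ZFP42, which was at 0 at day 7.5, put at its bound. LIN28A, an RNA-binding protein that blocks let-7 microRNA maturation, fell from 197, 246 and 301 CPM to 47.3, 26.2 and 26.0 CPM (log2 fold change −2.80, SE 0.23, edgeR adjusted p 3.1e-08). Its paralogue LIN28B fell from 118, 155 and 164 CPM to 68.7, 65.1 and 74.2 CPM (log2 fold change −0.94, SE 0.18, edgeR adjusted p 0.00269). DPPA4, a chromatin protein of stem cells, fell from 39.6, 34.6 and 62.6 CPM to 11.6, 8.30 and 10.4 CPM, and TERF1, a telomere protein, had a log2 fold change of −1.12. LIN28A, LIN28B and DPPA4 changed in all 14 alternative fits, and no library of day 7.5 reached the level of any day-4.5 library. NANOG and SOX2 were too low to be tested. POU5F1 was the 1 tested member with a fold change above 0 and was not called (log2 fold change 1.05, edgeR adjusted p 0.617). The mesoderm and streak list did not move as one (median 0.06). Of its 13 tested members 7 lay above 0, among them MESP2 without counts at either day, and 6 below. In the list of mesoderm and streak genes 2 of 13 were called lower: PDGFRA, a receptor of cardiac mesoderm, from 177, 272 and 264 CPM to 60.7, 76.6 and 79.4 CPM (log2 fold change −1.58, SE 0.24, edgeR adjusted p 0.000274), and LHX1, an early mesoderm factor, from 152, 62.2 and 68.9 CPM to 27.7, 8.93 and 17.1 CPM (log2 fold change −2.32, edgeR adjusted p 0.00471).

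Mitosis genes had fold changes below 0 in 24 of 25 members, of which 6 were called lower, with 0 higher (median −0.73). The background over all genes was 3.77% called lower. KIF20A, a motor of late mitosis, fell from 19.1, 22.2 and 42.4 CPM to 5.35, 7.02 and 2.97 CPM (log2 fold change −2.24, SE 0.49, edgeR adjusted p 0.00626). CCNB2, a B-type cyclin, fell from 37.5, 44.4 and 59.8 CPM to 18.7, 17.9 and 6.68 CPM, and UBE2C, a ubiquitin enzyme of mitotic exit, from 37.5, 36.4 and 64.7 CPM to 13.4, 8.30 and 20.0 CPM. KIF20A and CCNB2 lost their calls without the day-4.5 or the day-7.5 TNNT2 library (adjusted p 0.059 to 0.0624 and 0.0556 to 0.0714), and UBE2C without the day-7.5 TNNI1 or the day-4.5 TNNT2 library (0.0524 to 0.0623). The median difference of the list was −0.16 in the TNNI1 line, −0.89 in the WT line and −1.45 in the TNNT2 line, with a single library of each line a day. MKI67, the proliferation antigen, had 240, 325 and 391 CPM and then 350, 172 and 176 CPM, higher in the TNNI1 line and lower in the others, and TOP2A, the mitotic topoisomerase, did the same with 657, 927 and 1271 CPM and then 860, 479 and 574 CPM. The mitosis calls numbered 3 of 25 without the day-4.5 WT library, 2 without the day-7.5 TNNI1 library, 1 without the day-7.5 TNNT2 library and 0 without the day-4.5 TNNT2 library. Of 24 DNA replication genes 0 were called in edgeR and 1 in DESeq2, while 4 had an unadjusted p under 0.05, all lower (median −0.23). Of the D cyclins, CCND1 (edgeR adjusted p 0.636) and CCND2 (0.989) overlapped between days, and CDK4, their kinase, was called lower (log2 fold change −0.68, edgeR adjusted p 0.0456), a call that 3 of 14 alternative fits kept and that was lost without any 1 library except the day-7.5 WT library (0.0902 to 0.266).

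Sterol and fatty acid synthesis was the list with the most called members, 17 of 28 lower and 0 higher, with a median of −1.09. Cholesterol is built from acetyl units through mevalonate, farnesyl diphosphate and squalene, and in textbook accounts SREBP factors switch on most genes of this route and of fatty acid synthesis when sterols run low, with the CCAAT-binding factor NF-Y as a common partner at their promoters. FDFT1, squalene synthase, fell from 422, 461 and 368 CPM to 112, 146 and 53.4 CPM (log2 fold change −1.92, SE 0.24, edgeR adjusted p 3.65e-05). SCD, which makes monounsaturated fatty acids, fell from 867, 886 and 871 CPM to 246, 329 and 184 CPM (log2 fold change −1.69, SE 0.25, edgeR adjusted p 0.000196). The 3 day-4.5 libraries of SCD lay within a narrow range and every day-7.5 library was far below it. FDFT1 and SCD changed in all 14 alternative fits, and the WT line was highest of the 3 lines at day 7.5 for each.

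Along the pathway, HMGCS1, an entry enzyme of the mevalonate route, had a log2 fold change of −1.85, and INSIG1, the sterol-sensing retention protein of SREBP, had −2.64, the lowest of the list. Other called members included IDI1, FDPS, LSS, MSMO1, EBP and DHCR7 of the sterol route and FASN, ACLY, FADS1 and FADS2 of the fatty acid route, from −0.71 for FADS1 to −2.27 for FADS2. SREBF2, the gene of the sterol-regulated factor itself, lay just outside the threshold (log2 fold change −0.58, edgeR adjusted p 0.053), and PMVK and HSD17B7 were the 2 members with a fold change above 0, neither called. The count stayed between 13 and 19 of 28 without each single library and was 11 without the TNNI1 line, 17 without the WT line and 8 without the TNNT2 line.

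**Figure D3:**
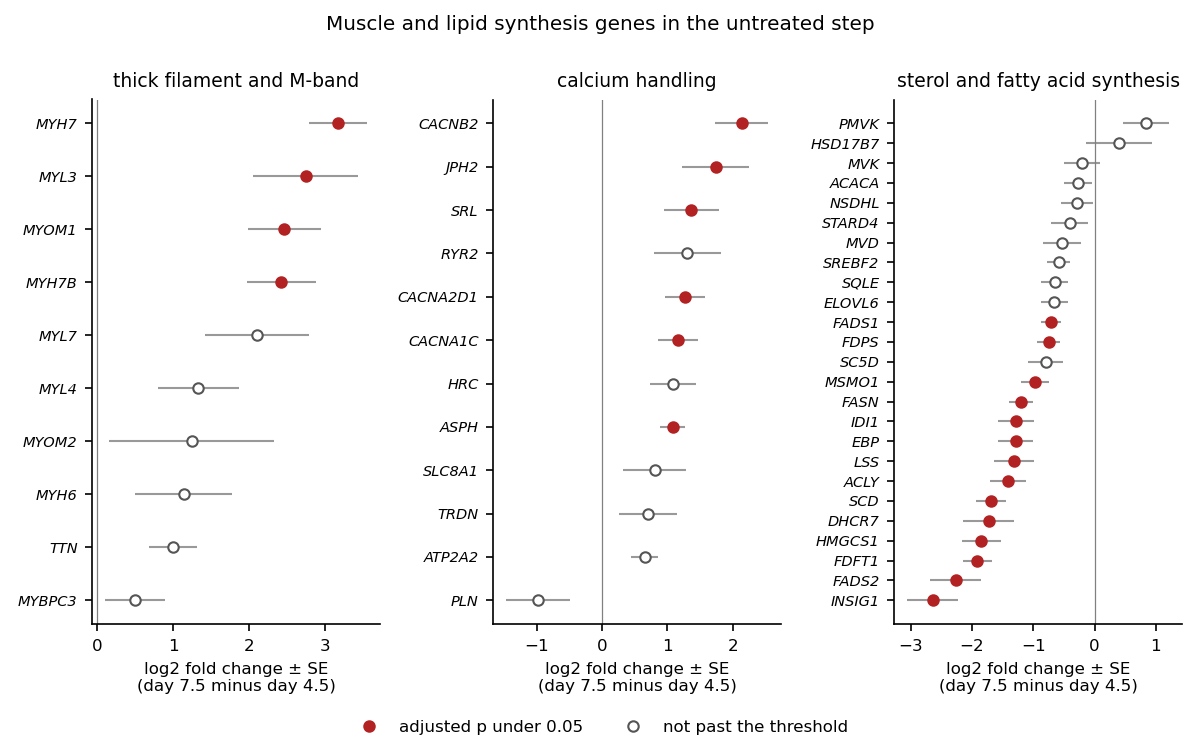
Fitted log2 fold change with its standard error, day 7.5 minus day 4.5, for tested members of 3 lists, without the members that are not reported here. Filled points passed an adjusted p of 0.05 and open points did not. All 10 thick filament and M-band genes plotted lie above 0 with 4 filled, PLN is the calcium gene below 0, and 23 of 25 sterol and fatty acid genes plotted lie below 0 with 14 filled.

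Because these genes moved together, the promoters of the list were read for 2 motifs in the 250 bases before the RefSeq start (GRCh38.p14), for the 23 of 29 members with an entry. The sterol regulatory element was searched as TCACNCCAC and the CCAAT box as CCAAT, each on both strands and counted separately. The CCAAT box was found in 9 of 12 promoters of genes called lower (75.0%), in 7 of 11 of the other members (63.6%), in 35.5% of promoters of genes tested and in 33.0% of all 27305 promoters. The sterol element letters were in 0 of the 12 windows and in 1 of the 11, that of SREBF2, and in 0.875% of all promoters. That these letters were not in the 12 windows says nothing on the factor. The stretches below, 100 bases each on the gene's strand, show called members of the cholesterol route and SCD, chosen after their values were seen, with CCAAT and its reverse complement in capitals. HMGCS1 is at chr5:43313488-43313587 (minus strand), INSIG1 at chr7:155297660-155297759, FDPS at chr1:155308732-155308831, EBP at chrX:48521708-48521807, MSMO1 at chr4:165327566-165327665 and SCD at chr10:100346983-100347082 (plus strand).
HMGCS1: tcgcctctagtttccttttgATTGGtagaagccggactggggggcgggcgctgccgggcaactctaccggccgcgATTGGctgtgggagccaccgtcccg
INSIG1: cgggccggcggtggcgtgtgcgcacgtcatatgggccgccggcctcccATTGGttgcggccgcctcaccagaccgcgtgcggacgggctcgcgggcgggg
FDPS: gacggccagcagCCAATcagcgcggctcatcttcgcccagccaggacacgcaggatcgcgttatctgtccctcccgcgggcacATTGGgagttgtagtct
EBP: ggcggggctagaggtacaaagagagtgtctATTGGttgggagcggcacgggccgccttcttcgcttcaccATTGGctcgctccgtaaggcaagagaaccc
MSMO1: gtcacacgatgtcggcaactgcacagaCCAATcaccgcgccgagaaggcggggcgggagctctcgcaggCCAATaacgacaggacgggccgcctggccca
SCD: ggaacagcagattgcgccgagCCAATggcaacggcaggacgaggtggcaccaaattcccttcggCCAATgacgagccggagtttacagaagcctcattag
The windows begin at different distances before the start, from 100 bases for EBP to 250 for SCD, and lie over matches. That they hold 2 matches each, except that of INSIG1 with 1, follows from this placement. The values beside them were −1.85 for HMGCS1, −2.64 for INSIG1, −0.75 for FDPS, −1.28 for EBP, −0.97 for MSMO1 and −1.69 for SCD on the log2 scale. IDI1 (−1.28), FADS1 (−0.71) and FADS2 (−2.27), also called lower, had 0 CCAAT matches and are not shown.

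Matrix genes were called in both directions. Of 17 interstitial matrix genes 8 were called lower and 2 higher (median −0.89). FN1 (fibronectin), a cell-adhesive glycoprotein, fell from 2551, 5004 and 4105 CPM to 452, 1272 and 850.2 CPM (log2 fold change −2.09, SE 0.30, edgeR adjusted p 0.000254). COL1A2, a chain of type I collagen, fell from 190, 410 and 433 CPM to 52.6, 93.8 and 115 CPM (log2 fold change −1.84, SE 0.31, edgeR adjusted p 0.000801), and TNC, the anti-adhesive tenascin C, from 89.4, 88.8 and 67.5 CPM to 14.3, 7.66 and 21.5 CPM (log2 fold change −2.39, edgeR adjusted p 0.00315). For FN1, COL1A2 and TNC the days did not overlap, and these genes changed in all 14 alternative fits. COL1A1 fell as well but lost its call without the day-7.5 TNNI1 or the day-4.5 TNNT2 library (adjusted p 0.0548 to 0.0684). The members called higher were FBN2, a microfibril protein of fetal tissue, from 379, 230 and 205 CPM to 579, 589 and 433 CPM (log2 fold change 1.11, edgeR adjusted p 0.00417), and POSTN (periostin), which overlapped between days at 2.05, 0.888 and 4.17 CPM and then 1.79, 9.57 and 30.4 CPM and lost its call without the day-4.5 or day-7.5 WT library or the day-4.5 or day-7.5 TNNT2 library (adjusted p 0.0572 to 0.235).

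In the basement membrane, the sheet of laminin, type IV collagen and perlecan on which cells rest, 5 of 16 genes were called higher and 1 lower (median 0.20). The laminin alpha chains moved in opposite directions. LAMA1, the chain of early embryonic membranes, fell from 122, 197 and 199 CPM to 22.3, 42.1 and 51.9 CPM (log2 fold change −2.02, SE 0.22, edgeR adjusted p 6.97e-06). LAMA2, the chain of muscle membranes and a ligand of the dystrophin complex, rose from 29.4, 9.77 and 13.2 CPM to 152, 146 and 74.2 CPM (log2 fold change 2.85, SE 0.40, edgeR adjusted p 0.000148). HSPG2 (perlecan) rose from 78.5, 34.6 and 49.4 CPM to 216, 114 and 223 CPM, and LAMB1, a laminin beta chain, from 79.9, 120 and 109 CPM to 184, 276 and 177 CPM. LAMA4, a chain of vessel and muscle membranes, and COL4A2 were the other members called higher, with log2 fold changes of 1.85 and 1.26. LAMA1, LAMA2, HSPG2 and LAMB1 changed in all 14 alternative fits and none overlapped between days.

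Of the hyaluronan system, HAPLN1 (ENSG00000145681, chromosome 5, 83637805 to 83721613), the link protein that locks versican onto hyaluronan, fell from 427, 504 and 636 CPM to 75.0, 70.2 and 76.4 CPM. The day-7.5 libraries lay within a narrow band and its adjusted p was the lowest of all genes tested, tied with DMD, LIN28A and NR6A1 (log2 fold change −2.69, SE 0.22, edgeR adjusted p 3.1e-08). VCAN (versican), the large proteoglycan of cardiac jelly, moved the other way, from 2448, 2109 and 2354 CPM to 5759, 4633 and 3340 CPM (log2 fold change 1.10, SE 0.27, edgeR adjusted p 0.0168), and lost its call without the day-7.5 TNNI1, the day-4.5 WT or the day-4.5 TNNT2 library (0.0706 to 0.112). HAS2, the main hyaluronan synthase of the heart, had 459, 398 and 331 CPM and then 339, 251 and 269 CPM, lower in each line with overlapping days (log2 fold change −0.34, SE 0.28, edgeR adjusted p 0.458). UGDH, which makes the glucuronate precursor, was called lower (log2 fold change −1.15, edgeR adjusted p 0.0407) and lost its call without the day-7.5 TNNI1, the day-4.5 WT, the day-4.5 TNNT2 or the day-7.5 TNNT2 library (0.087 to 0.244). In all, 1 of 8 tested members was called higher and 2 lower, and CD44 and the hyaluronidase HYAL1 were too low to be tested.

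**Figure D4:**
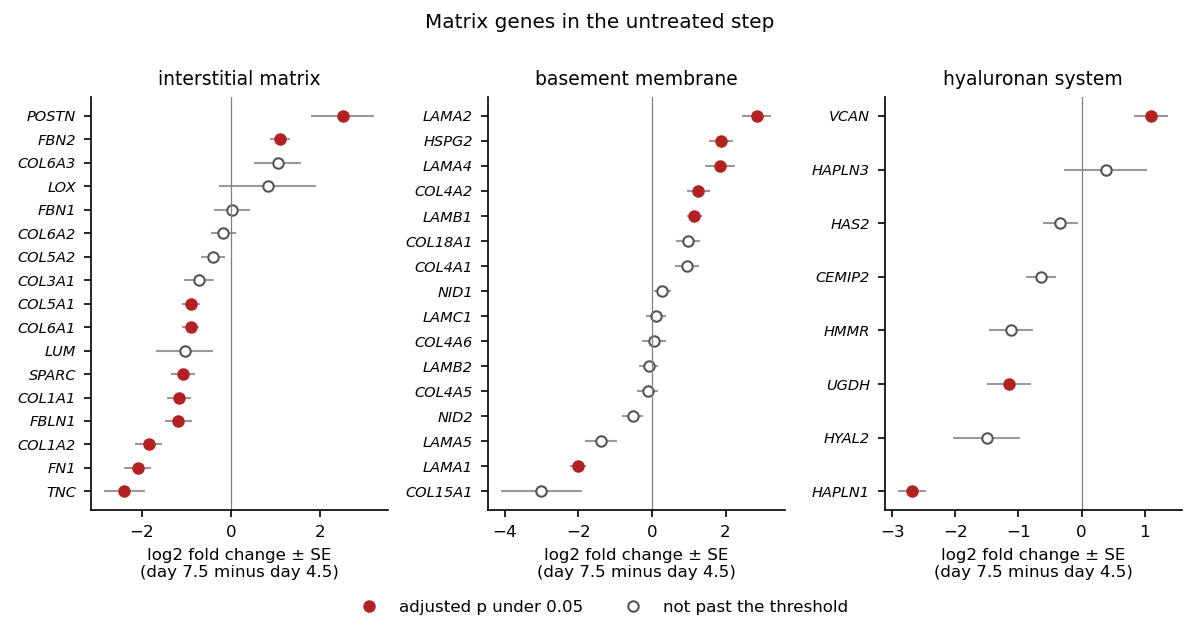
Fitted log2 fold change with its standard error, day 7.5 minus day 4.5, for tested members of the interstitial matrix, basement membrane and hyaluronan lists, filled where the adjusted p was under 0.05. FN1, COL1A2 and TNC lie at −2.09, −1.84 and −2.39, LAMA1 and LAMA2 on opposite sides at −2.02 and 2.85, and HAPLN1 and VCAN at −2.69 and 1.10.

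Calls in the signalling lists went both ways, against a background of 4.34% of genes tested called higher and 3.77% called lower. Of 17 WNT genes 1 was higher and 2 lower: beside FZD7, WNT5B, a non-canonical ligand, rose from 23.2, 9.77 and 9.74 CPM to 81.2, 69.6 and 149 CPM (log2 fold change 2.94, edgeR adjusted p 0.0109), and SFRP5, a secreted WNT inhibitor, fell from 25.3, 63.1 and 80.7 CPM to 6.25, 17.9 and 3.71 CPM (log2 fold change −2.45, edgeR adjusted p 0.0328). WNT5B lost its call without the day-4.5 WT, the day-4.5 TNNT2 or the day-7.5 TNNT2 library (adjusted p 0.0684 to 0.0802), and SFRP5 without those or the day-7.5 TNNI1 library (0.1 to 0.171). Of 17 BMP genes 1 was higher and 2 lower. BMPER, an extracellular BMP modulator, fell from 61.4, 65.7 and 72.3 CPM to 21.4, 33.8 and 25.2 CPM (log2 fold change −1.19, SE 0.23, edgeR adjusted p 0.00301), and BMPR2, a type II receptor, rose from 79.9, 111 and 105 CPM to 166, 138 and 220.3 CPM (log2 fold change 0.96, edgeR adjusted p 0.00718), a call lost without the day-7.5 TNNT2 library (0.0696). ID2, a BMP target, was called lower, a call lost without any library but the day-7.5 WT library (0.106 to 0.256).

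For the FGF, retinoid and IGF lists the background is again 4.34% of genes called higher and 3.77% called lower. Of 18 genes of the FGF list 1 was higher and 2 lower. DUSP6, the phosphatase that ERK signalling induces against itself, fell from 324, 587 and 308 CPM to 93.7, 119 and 96.4 CPM (log2 fold change −1.82, SE 0.26, edgeR adjusted p 0.000155), and the 3 day-7.5 libraries lay close together. ETV5, another ERK target, was called lower in 3 of 14 alternative fits and lost its call without the day-4.5 or day-7.5 TNNI1, the day-4.5 WT or the day-4.5 TNNT2 library (adjusted p 0.0876 to 0.223). FGF18, a ligand, rose from 1.37, 0.888 and 4.17 CPM to 21.4, 23.0 and 8.90 CPM (edgeR adjusted p 0.019), a call lost without the day-4.5 or day-7.5 TNNI1 or the day-4.5 WT library (0.0686 to 0.104). Of 11 retinoid genes 2 were lower: CRABP2, which carries retinoic acid to its receptor, fell from 321, 455 and 338 CPM to 27.7, 56.8 and 16.3 CPM (log2 fold change −3.37, SE 0.79, edgeR adjusted p 0.0176), and DHRS3, a retinaldehyde reductase that retinoic acid induces, from 80.5, 80.8 and 80.0 CPM to 18.7, 15.3 and 31.9 CPM (log2 fold change −1.77, SE 0.36, edgeR adjusted p 0.004). CRABP2 lost its call without the day-7.5 TNNI1, the day-4.5 WT, the day-4.5 TNNT2 or the day-7.5 TNNT2 library (0.0609 to 0.104). Of 11 genes of the IGF axis 2 were higher: IGFBP5, a binding protein for IGFs, rose from 28.7, 32.0 and 34.1 CPM to 261, 104 and 83.8 CPM (log2 fold change 2.29, SE 0.38, edgeR adjusted p 0.000786), most in the TNNI1 line, and IGFBP2 rose with a call lost without the day-7.5 TNNI1, the day-4.5 WT, the day-4.5 TNNT2 or the day-7.5 TNNT2 library (0.115 to 0.155).

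Genes of energy metabolism did not move as one. MB (myoglobin), the oxygen store of muscle, rose from 56.0, 10.7 and 14.6 CPM to 390, 90.6 and 164 CPM (log2 fold change 3.09, SE 0.45, edgeR adjusted p 0.000341) in all 14 alternative fits. CKM, the muscle creatine kinase, was called higher (log2 fold change 1.63, edgeR adjusted p 0.0478) while the brain form CKB was called lower, from 303, 311 and 348 CPM to 128, 195 and 177 CPM (log2 fold change −0.84, edgeR adjusted p 0.0215). CKM had 93.5, 16.9 and 18.1 CPM and then 91.9, 75.9 and 133 CPM, without change in the TNNI1 line, and lost its call without either WT or either TNNT2 library (adjusted p 0.0587 to 0.241). CKB lost its call without either TNNI1 or either TNNT2 library (0.0551 to 0.126). PPARGC1B, a coactivator of mitochondrial genes, was the other member of the energy list called higher (log2 fold change 1.53, edgeR adjusted p 0.0173) and lost its call without the day-4.5 WT, the day-4.5 TNNT2 or the day-7.5 TNNT2 library (0.0844 to 0.179). Of 22 genes of fatty acid oxidation and the TCA cycle 1 was higher, CPT1A, and 2 were lower, the citrate synthase CS and the fumarase FH, with a median of 0.02. CPT1A lost its call without the day-7.5 TNNI1, either WT or the day-4.5 TNNT2 library (adjusted p 0.0935 to 0.213), CS without either TNNI1, the day-4.5 WT or the day-7.5 TNNT2 library (0.0878 to 0.15), and FH without any library but the day-7.5 WT library (0.0558 to 0.176). Without the day-4.5 WT or the day-7.5 TNNI1 library 0 members of the list were called. Of 25 nuclear-encoded respiratory chain genes 1 was called higher, COX6A2, the heart and muscle form of a cytochrome oxidase subunit, and 0 lower, with a median of −0.54. COX6A2 had 10.9, 1.78 and 0.695 CPM and then 33.0, 8.93 and 29.7 CPM (edgeR adjusted p 0.0413) and lost its call without any of the day-4.5 libraries or the day-7.5 TNNT2 library (0.0848 to 0.276). Without the day-7.5 WT library 9 of the 25 were called lower, and the median difference was −0.85 in the TNNI1 line, 0.18 in the WT line and −0.59 in the TNNT2 line.

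Glycolysis and hypoxia genes were called higher in 5 of 24 and lower in 1 (median 0.62). PFKP, a phosphofructokinase, rose from 353, 198 and 209 CPM to 563, 467 and 906 CPM (log2 fold change 1.48, SE 0.30, edgeR adjusted p 0.00494). VEGFA, the vessel growth factor, rose from 173, 102 and 109 CPM to 581, 199 and 284 CPM (log2 fold change 1.52, edgeR adjusted p 0.00862), and BNIP3, a mitophagy gene of the hypoxia response, had 220, 82.6 and 93.9 CPM and then 319, 215 and 203 CPM. VEGFA lost its call without the day-7.5 TNNI1 or the day-4.5 TNNT2 library (adjusted p 0.0517 to 0.0616) and BNIP3 without the day-4.5 WT library (0.0638). SLC2A3, a glucose transporter, was called lower, a call lost without either TNNI1 or either TNNT2 library (0.059 to 0.173). The number called higher was 9 without the day-4.5 TNNI1 library or without the day-7.5 WT library, and 2 or 3 without any other single library.

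Markers of other cell types were read in the same libraries. Of 15 endothelial markers the summed level was 53.9, 64.8 and 89.7 CPM at day 4.5 and 63.4, 92.5 and 147 CPM at day 7.5, with the defining genes PECAM1 at 1.39 to 3.41 and then 3.19 to 17.8 CPM and CDH5 at 0.888 to 2.09 and then 0.638 to 2.97 CPM. Of the 10 tested 0 were called in edgeR and 1 in DESeq2, and 4 had an unadjusted p under 0.05, all higher (median 1.18). Fold changes were above 0 in 7 of the 10 and below 0 in 3: TEK (−0.555), NOS3 (−1.68) and ETV2 (−0.204). The part of endothelial cells in the rise of ENG was not tested. The 12 epicardial markers summed to 314 to 437 CPM at day 4.5 and 169 to 246 CPM at day 7.5, most of it from genes other than the defining WT1 and TCF21, which were at 0 in some libraries of each day. The 10 fibroblast markers summed to 867 to 2241 CPM and then 379 to 1230 CPM, with the defining DCN at 0 to 4.44 and then 0.892 to 23.7 CPM and LUM at 3.41 to 40.3 and then 0 to 14.1 CPM, and this sum is led by COL1A1 and COL3A1, which the matrix list also holds. Its part in the fall of the collagens was not tested. AFP, a fetal liver and yolk sac protein, was the single endoderm marker called, from 4.10, 3.55 and 2.09 CPM to 83.9, 18.5 and 9.64 CPM (log2 fold change 3.27, edgeR adjusted p 0.0176). Its call was lost without either TNNI1 library, the day-4.5 WT or the day-4.5 TNNT2 library (0.0569 to 0.264). The 19 endoderm and liver-type markers summed to 308, 97.7 and 96.0 CPM at day 4.5 and 619, 138 and 208 CPM at day 7.5, higher in every line, with the defining FOXA2 at 1.39 to 17.7 and then 0 to 2.55 CPM and SOX17 at 0 to 1.39 and then 0 to 3.19 CPM. The part of endoderm-type cells in the step was not tested. Among 7 tested smooth muscle markers, SMTN (smoothelin) was the one called (log2 fold change 1.33, edgeR adjusted p 0.028), and it lost its call without the day-7.5 TNNI1, the day-4.5 WT, the day-4.5 TNNT2 or the day-7.5 TNNT2 library (0.075 to 0.206). All 7 had a fold change above 0 (median 0.79), 3 of them with an unadjusted p under 0.05. The 8 smooth muscle markers summed to 1337, 716 and 670 CPM at day 4.5 and 1005, 1941 and 1434 CPM at day 7.5, lower in the TNNI1 line and higher in the WT and TNNT2 lines, and its highest member in each library was ACTA2, which early heart muscle also expresses. The defining MYH11 was at 0 to 1.36 and then 0.638 to 4.45 CPM. The part of smooth muscle cells in the rise of the sarcomere genes was not tested. PTPRC of blood, SOX10 of neural crest and MYOD1 and MYOG of skeletal muscle were at 0 in all 6 libraries, but other members of these lists had counts. The 10 neural and crest markers summed to 586 to 1074 CPM at day 4.5 and 785 to 1251 CPM at day 7.5. Nearly all of that sum was NES, which was not called, and PAX6 had 1 count at day 7.5. No library exceeded 11.6 CPM for the summed blood markers or 9.82 CPM for the summed skeletal muscle markers.

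The same step was measured in libraries of the genotype arm that share none of these 6: 3 WT libraries of day 7.5 against 6 WT libraries of day 4.5. The day-4.5 libraries were of the lines WT, WT_TU, cl43_WT_UT and TNT2, and those of day 7.5 of WT and WT_TU only. Line and day were thus partly confounded. The WT step was fitted over all 65 libraries without line as a block, so its numbers of calls are not like for like with the untreated step. Of the 1033 genes called in the untreated step, 934 (90.4%) moved in the same direction there, against 63.7% of all genes tested in both. Of these, 207 were called in both with the same sign, which is 20.0% of the untreated calls and 49.9% of the 415 calls of the WT step, and 0 were called with opposite signs. The median log2 fold change of the genes called higher was 1.25 in the untreated step and 0.64 in the WT step, and of those called lower −1.24 and −0.58. The untreated values are those that chose the genes. DMD had 3.51 and 4.19, LIN28A −2.80 and −2.68, HAPLN1 −2.69 and −2.35, FN1 −2.09 and −2.55, LAMA2 2.85 and 3.05 and MYH7 3.17 and 1.54 in the untreated and WT steps, and all 6 were called in both.

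A direct test of the difference between the 2 steps called 0 of 14047 genes (0.0%) in edgeR, with 1186 genes at an unadjusted p under 0.05, and 0 in DESeq2. Without the untreated day-7.5 WT library 74 genes were called, and without the WT_R2 library of day 7.5 in the genotype arm 2. Of the 28 sterol genes 4 were called lower in the WT step (median −0.65) against 17 in the untreated step (median −1.09). Over all genes, 204 of 14047 were called lower in the WT step and 480 of 12748 in the untreated step. The counts of the 2 steps come from fits that differ in libraries and block. For FDFT1 the untreated step was lower than the WT step by a log2 difference of −1.11 (SE 0.30, edgeR adjusted p 0.323), so that a difference between the arms was not established for it.

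**Figure D5:**
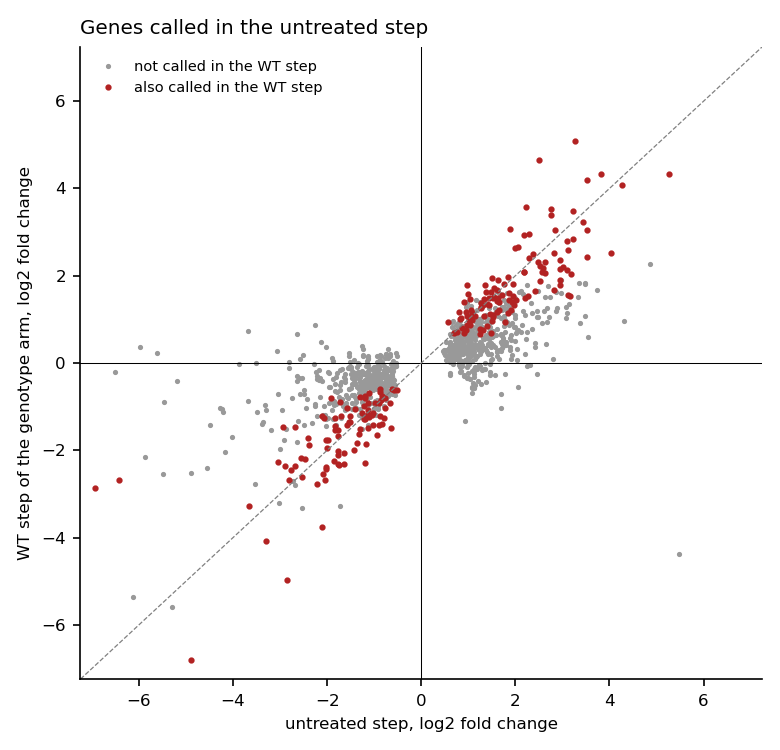
Log2 fold change of the 1033 genes called in the untreated step (x axis) against that of the same genes in the WT step of the genotype arm (y axis), both day 7.5 minus day 4.5, with the line of equal change dashed. Red points were called in both steps. Of the genes, 934 lie in the 2 quadrants of equal sign, and most lie nearer to 0 in the WT step, where the median of genes called higher was 0.64.

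Hyaluronidase-treated cardioids of the same 3 lines were compared at the same days. The HAse1.5 step had 1211 calls, and of the 1033 untreated calls 92.8% moved in the same direction in it (70.0% of all genes). The HAse2.5 step had 385 calls, with 95.6% of the untreated calls in the same direction (69.1% of all genes). The HAse1.5 step differed from the untreated step in 10 of 12748 genes (0.0784%), 7 with a higher and 3 with a lower change under the enzyme, and 1169 genes had an unadjusted p under 0.05 (edgeR). That count was 75 without the HAse1.5 day-4.5 WT library, 38 without the untreated day-7.5 WT library, 5 without the untreated day-4.5 TNNT2 library and 6 without the HAse1.5 day-4.5 TNNT2 library. The HAse2.5 step differed from the untreated step in 0 genes (0.0%) in edgeR, with 705 at an unadjusted p under 0.05, and in 2 genes in DESeq2. It differed in 5 genes without the untreated day-7.5 WT library, 2 without the HAse2.5 day-7.5 WT library and 1 without the HAse2.5 day-4.5 TNNT2 library. HAPLN1 fell less in the HAse1.5 step (log2 fold change −0.93) than in the untreated step (−2.69), a difference of 1.76 (SE 0.29, edgeR adjusted p 0.00858). COL6A1, a chain of type VI collagen, fell in the untreated step (−0.90, edgeR adjusted p 0.00406) and rose in the HAse1.5 step (0.61, adjusted p 0.0354), a difference of 1.51 (SE 0.26, edgeR adjusted p 0.0132). The steps also showed different calls for the cell cycle, with 24 of 25 mitosis genes lower in the HAse1.5 step against 6 of 25 in the untreated step. Over all 12748 genes, 553 were called lower in the HAse1.5 step and 480 in the untreated step. None of the mitosis genes was among the 10 whose difference passed the test.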

How the data were processed

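QuantSeq 3′ RNA-seq libraries were sequenced as single reads, per the labels' protocols. The authors deposited 1 table of raw gene counts, made with featureCounts (Subread 1.6.2) on hg38/GRCh38, per the submitters' processing notes. The aligner and the strand setting are not given in the sources used here, so overlapping and antisense genes are uncertain. CPM are counts scaled to each library's total. Genes were filtered with filterByExpr (minimum count 10), scaled by TMM and tested with edgeR 4.0.16 (R 4.3.3) in a quasi-likelihood model of group plus line over the 24 libraries of the enzyme arm, with Benjamini-Hochberg adjustment over all genes at 0.05. The difference from the WT step was fitted over all 65 libraries without the block. Line numbers came from the labels, and libraries were paired by those labels. Residuals of same-line libraries of both days had r of 0.225, 0.179 and 0.109, and other pairs lay between −0.156 and −0.00641. Residuals were taken from the mean of each group, so positive same-line values draw the other pairs below 0. The contrast between them is therefore no separate test of the pairing. Named genes were the 10 highest and 10 lowest called, a fixed panel of 28, up to 3 called a direction in each of 33 lists (or 2 of the highest CPM where none was called), and up to 4 a direction in each step difference. A few genes that this rule or the lists hold are not reported here, and counts over lists include them. The members and lists were chosen with earlier results of these data known. On simulated data the model recovered 17% of genes changed by 1 log2 unit and 72% of those changed by 2, among 12243 genes. Of the calls made there, 2.2% were false. The simulation changed 100 genes at each size and had no line effects or other group differences, so its rates need not hold here. Alternatives were no block, RLE size factors, no filter, DESeq2 1.42.0, only the groups compared, and leaving out each library or line. Counting intervals (95%) and floors of 3 counts cover counting error only. Promoters came from RefSeq (GRCh38.p14), and gene coordinates from the annotation of GRCh38.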

Additional observations from a re-analysis of the deposited data

Results flagged for a closer look

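In 10 genes the step from day 4.5 to day 7.5 differed between HAse1.5 and untreated cardioids by a direct test of the difference (edgeR quasi-likelihood, log2 differences, HAse1.5 minus untreated). Matrix and secreted proteins were among those with a higher change under the enzyme. The difference for CCDC80 was 2.42 (SE 0.30, edgeR adjusted p 0.000424), from −1.315 in the untreated step to 1.11. HAPLN1 differed by 1.76 (adjusted p 0.00858) and COL6A1 by 1.51 (adjusted p 0.0132), as described above. A2M, a protease inhibitor, differed by 7.15 (adjusted p 0.00858), with 0.65 in the untreated step and 7.80 under the enzyme. ARHGDIB differed by 3.34 (adjusted p 0.0132), CASZ1, a cardiac zinc finger factor, by 2.45 (adjusted p 0.0171), and FTL, the ferritin light chain, by 1.10 (adjusted p 0.0171), from −1.13 untreated to −0.03. In the other direction, TUNAR, a long non-coding RNA, differed by −4.95 (adjusted p 0.00858), with 1.501 untreated and −3.45 under the enzyme. SIPA1L1 differed by −1.99 and NCAM1, a neural cell adhesion molecule, by −1.34 (adjusted p 0.0144 for both), and both rose in the untreated step (1.87 and 1.32).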

How the results depend on the processing

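The 1033 calls of the step became 814 without the replicate block (808 of them shared), 1055 with RLE size factors, 1065 with only the groups compared, 1430 with DESeq2 and 1709 without a filter on low counts (720 higher). Leaving out libraries or lines gave 181 to 2166 calls, the lowest without the TNNT2 line and the highest without the day-7.5 WT library, and the cause was not tested. The difference from the WT step went from 0 calls to 47 without a filter, and to 0 to 74 over single-library leave-outs. The difference of HAse1.5 from untreated went from 10 calls to 2 without the replicate block, 248 without a filter, 82 with DESeq2 and 3 with only the groups compared, and to 5 to 75 over leave-outs. The difference of HAse2.5 from untreated went from 0 to 41 without a filter, 2 with DESeq2 and 3 with only the groups compared, and to 0 to 5 over leave-outs.

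Of the values of named genes under the alternatives, 1402 kept their direction and side of the threshold, 286 no longer passed, 36 passed only there and 20 changed sign. Those that changed sign belong to 5 genes, none of them called. The log2 fold change of CACNA1D (−0.04) was 0.0009 with no replicate block, 0.0237 with only the groups compared and −0.3457 to 0.2095 over leave-outs. The log2 fold change of NPPB (0.17) was −0.4879 with no replicate block, −0.3342 with only the groups compared and −0.6823 to 1.2929 over leave-outs. The log2 fold change of CCND2 was −0.0109 without a filter and −0.1734 to 0.1363 over leave-outs, CCND1 −0.0546 to 0.7156 and NES −0.0418 to 0.876. The filter on low counts ran over the 24 libraries of the enzyme arm, so some genes with few counts in these 6 were tested and others were not, and a gene not called may still differ.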

Other observations

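The untreated libraries of day 2.5, which the comparison above does not use, place some of its genes on a longer course, given here as levels with no test. HAPLN1 had 176, 130 and 181 CPM at day 2.5, below its 427, 504 and 636 CPM at day 4.5 and above its 75.0, 70.2 and 76.4 CPM at day 7.5, so day 4.5 was the highest of the 3 days in every line. FN1 had 726, 639 and 777 CPM at day 2.5 and COL1A2 had 77.6, 86.8 and 94.2 CPM, each below its own day-4.5 libraries in every line. LIN28A had 625, 534 and 496 CPM at day 2.5 and LAMA1 had 250, 252 and 296 CPM, so both were lower at each later day in every line. SCD had 885, 601 and 679 CPM at day 2.5, against 867 to 886 CPM at day 4.5. HAS2 had 765, 1031 and 953 CPM at day 2.5, against 331 to 459 CPM at day 4.5.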
